A study of Mus musculus with 6 samples.

Results

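The respiratory chain genes described here were the nuclear-encoded subunit genes of the 5 complexes of oxidative phosphorylation, chosen by gene name. A gene was taken when its name in the scanner files began as those of the Nduf, Sdh, Uqcr, Cox4 to Cox8 and Atp5 families do, and when its brightest probe was well above background on all 6 arrays. The name rule found 85 genes on the array, read by 128 probes, and 81 of them passed the brightness rule, among 12899 named genes that passed it in the whole series. These 81 were 36 genes of complex I, 4 of complex II, 8 of complex III, 16 of complex IV and 17 of complex V. The rule used names and detection only, not the differences between groups. It also took a few genes that are not subunits. RefSeq now lists Atp5s as Dmac2l, Atp5sl as Dmac2 and Cox4nb as Emc8, and Cox7a2l encodes an assembly factor of respiratory supercomplexes. They were kept, since the rule names them.

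Complexes I to IV sit in the inner membrane of the mitochondrion and pass electrons from NADH or succinate to oxygen, and complexes I, III and IV pump protons as they do so. Complex V, the ATP synthase, lets the protons flow back and makes ATP. Most subunits are encoded in the nucleus and imported, while a small core set is encoded by the mitochondrial genome, so that both genomes have to be expressed together. Some subunits of complex IV exist as a common form and a second form that is known from heart and skeletal muscle, lung or testis.

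Total RNA came from mouse embryonic fibroblasts (MEFs) of the ICR strain, grown in medium with fetal bovine serum. The 6 groups were Per2m/m, Clk/Clk and wild type MEFs that had received a vector expressing H-Ras and SV40T, called transfected here, and Per2m/m, Clk/Clk and wild type MEFs that had received a mock. Clk/Clk MEFs are Clock mutants by the series design, and the Per2m/m allele, the species of the H-Ras, the number of embryos behind each culture and the time after transfection are not given in the sources used here. H-Ras is a small GTPase of growth factor signalling, and the large T antigen of SV40 inactivates the tumour suppressors p53 and RB. For the transfected Per2m/m sample, the source name gives Per2 and H-Ras but not SV40, whereas the title and the transfection label give both. Each group was 1 array, so a difference between 2 arrays had no replicate check, and p-values come only from the additive model below.

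The level of a gene was its log2 signal after subtraction of the 75th percentile of the array, so 0 is that percentile and a difference of 1 is 2-fold. The response is the transfected minus the mock level within a genotype. Repeated spots of a probe spread by a median SD of 0.048 to 0.057 per array (log2), which gives 0.076 for a ratio of 2 arrays and covers spot noise only. The transfected Per2m/m array stood apart. Only 49.3% of its spots were well above background, with 53.5% to 57.3% on the remaining 5, and its correlations with them lay between 0.877 and 0.911 across genes. Xist, Ddx3y and Eif2s3y, the last 2 Y-linked, were not well above background on it, although all 3 were on the mock Per2m/m array. Xist also separated Clk/Clk from wild type MEFs. It was not well above background in transfected (-6.63) or mock Clk/Clk MEFs (-6.79), but was in transfected (-0.95) and mock wild type MEFs (-1.03). Ddx3y and Eif2s3y were well above background on all Clk/Clk and wild type arrays. All 9 fibroblast markers examined were well above background on every array, and their summed linear level was 1190.0 to 1540.0 in transfected and 1430.0 to 1670.0 in mock MEFs. Single markers moved further. Thy1 had levels of -0.66 in transfected and 7.11 in mock Per2m/m MEFs, Col3a1 had 1.57 and 5.16, and Dcn had -0.89 and 2.03 there and -1.45 and 4.42 in transfected and mock wild type MEFs. Of 9 epithelial markers, 5 were well above background in both transfected and mock Per2m/m MEFs, with summed levels of 6.42 and 4.55, against 0.597 to 0.861 in the other transfected and 1.09 to 1.97 in the other mock MEFs. The 5 were not the same genes, since Cdh1 and Krt8 were well above background only in the transfected and Krt18 and Krt19 only in the mock Per2m/m MEFs. Krt14 had a level of 2.57 in transfected and -4.13 in mock Per2m/m MEFs, and -3.84 to -3.3 on the remaining 4 arrays. Krt19 went the other way, with -5.11 in transfected and 1.87 in mock Per2m/m MEFs, and so did Krt18, with -5.05 and -0.60. Of 14 macrophage markers on the array, 8 were well above background on each of the 3 transfected arrays, against 14 in mock Per2m/m, 10 in mock Clk/Clk and 12 in mock wild type MEFs, and their summed linear level was 18.3 to 57.3 in transfected and 47.6 to 62.1 in mock MEFs. The part of these markers in the results below was not tested. The probe of Clock had levels of -0.05 and -0.30 in transfected and mock Clk/Clk MEFs, against 0.70 and 0.49 in transfected and mock wild type MEFs. That of Per2 had levels of -2.82 and -0.98 in transfected and mock Per2m/m MEFs, against -2.38 and -3.37 in transfected and mock wild type MEFs. That of Hras1 had levels of 3.16 and 4.49 in transfected and mock Per2m/m MEFs, 3.86 and 3.23 in transfected and mock Clk/Clk MEFs, and 4.01 and 4.17 in transfected and mock wild type MEFs, so it was lower in transfected cells of 2 of 3 genotypes. The sources used here do not place either mutation relative to these probes, nor say whether the Hras1 probe reads the vector's transcript, so they do not check the labels.

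The promoters of the genes were read from RefSeq windows (GRCm38.p6) that run from 250 bases before to 50 after each gene's start. A window was found for 69 of the 85 genes, 75 windows in all. Both strands were searched for 3 motifs of factors known to drive nuclear genes of mitochondrial proteins. The core of the NRF1 motif, GCGCANGCG, was present in 21 of 75 windows (28%), against 6.25% of 32851 windows of all genes. The ETS motif CCGGAAG, bound by GABP, was present in 16 windows (21.3%), against 8.86% of all. The core of the YY1 motif, AAGATGGCG, was present in 9 windows (12%), against 1.4% of all. The letters describe these windows and are not evidence of binding. Upstream bases are printed below for 4 genes that the results return to: Cox6a1, the common form of a complex IV subunit, Atp5g2, which encodes the c subunit of the ATP synthase rotor, and Cox6b2 and Cox7a1, 2 tissue forms of complex IV subunits. They are the 250 bases before the start, 5′ to 3′ on the gene's strand, with the motif letters in capitals.
Cox6a1, chr5:115348959-115349208, minus strand: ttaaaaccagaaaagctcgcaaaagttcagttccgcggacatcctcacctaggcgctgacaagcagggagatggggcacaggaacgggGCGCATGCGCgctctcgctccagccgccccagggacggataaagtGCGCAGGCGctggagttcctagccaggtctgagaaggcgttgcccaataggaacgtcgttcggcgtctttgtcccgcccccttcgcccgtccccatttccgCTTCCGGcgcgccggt
Atp5g2, chr15:102671048-102671297, minus strand: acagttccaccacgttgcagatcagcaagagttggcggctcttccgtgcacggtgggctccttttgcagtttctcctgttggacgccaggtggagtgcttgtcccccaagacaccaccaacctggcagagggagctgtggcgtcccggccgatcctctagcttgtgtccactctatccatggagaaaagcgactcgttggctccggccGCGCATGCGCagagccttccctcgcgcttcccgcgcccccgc
Cox6b2, chr7:4753095-4753344, minus strand: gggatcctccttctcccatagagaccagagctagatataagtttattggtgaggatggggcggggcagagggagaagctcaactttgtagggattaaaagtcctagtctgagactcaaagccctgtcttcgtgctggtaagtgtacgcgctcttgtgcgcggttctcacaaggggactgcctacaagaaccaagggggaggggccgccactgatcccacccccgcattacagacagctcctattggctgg
Cox7a1, chr7:30183921-30184170, plus strand: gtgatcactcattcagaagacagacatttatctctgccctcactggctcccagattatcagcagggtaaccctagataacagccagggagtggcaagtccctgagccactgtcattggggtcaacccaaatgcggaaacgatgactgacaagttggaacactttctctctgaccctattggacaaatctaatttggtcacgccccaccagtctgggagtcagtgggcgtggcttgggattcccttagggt
The Cox6a1 bases held the NRF1 motif at 2 places, in one of them on both strands since the motif is nearly its own reverse complement, and an ETS motif on the other strand. The Atp5g2 bases held the NRF1 motif at 1 place, again on both strands. None of the 3 motifs was in the bases printed for Cox6b2 or Cox7a1. The response had medians of 0.40 in Per2m/m, -0.14 in Clk/Clk and 0.35 in wild type MEFs over the 20 genes measured with an NRF1 motif. Over the 47 measured without one they were 0.42, -0.21 and 0.25.

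The first comparison asked how the genes differed between transfected and mock cells of each genotype. Respiratory chain transcripts were higher on balance in transfected than in mock Per2m/m and wild type MEFs, and lower on balance in transfected than in mock Clk/Clk MEFs, all by much less than 2-fold. In RNA of whole cultures, fewer cells of a type and less RNA per cell cannot be told apart. The median response of the 81 genes was 0.40 in Per2m/m, -0.16 in Clk/Clk and 0.29 in wild type MEFs, beside 0.21, 0.00 and 0.07 over all 12899 genes. In Per2m/m MEFs 68 of 81 responses were above 0 (59.5% of all genes), in Clk/Clk MEFs 18 (50.5% of all genes) and in wild type MEFs 66 (55.3% of all genes). The lower median in Clk/Clk MEFs held under every scaling tried, at -0.13 to -0.18 relative to all genes with 18 to 21 of 81 above 0, whereas relative to all genes the Per2m/m median turned from 0.18 to -0.04 and the wild type median shrank from 0.22 to 0.04 when arrays were quantile-normalized. The authors' deposited table, which is quantile-normalized, gave the same 2 values to 2 decimals. With each array scaled to its median instead, the median of all genes itself moved to 0.49 in Per2m/m and 0.39 in wild type MEFs and the difference of the 81 genes from it did not change.

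The genes of the chain spread less than all genes did. Their responses had an SD of 0.72 in Per2m/m, 0.28 in Clk/Clk and 0.49 in wild type MEFs, against 1.42, 0.46 and 0.74 over all genes. In Per2m/m MEFs 72 of 81 lay within 2-fold (67.3% of all genes), in Clk/Clk MEFs 79 (96.1%) and in wild type MEFs 77 (87.0%). They are bright genes, and 67 of them had a mean level of at least 4. Those 67 had median responses of 0.41, -0.18 and 0.32 in Per2m/m, Clk/Clk and wild type MEFs, beside 0.24, 0.00 and 0.19 over all 2145 genes of that brightness. Across the 81 genes the response in Per2m/m MEFs correlated weakly with that in wild type MEFs (r = 0.245, against 0.388 over all genes), and the Clk/Clk response with neither (r = 0.069 with Per2m/m and 0.023 with wild type). Pairs of arrays share no array here, but all genes of an array share its scaling.

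A response above 0 in both Per2m/m and wild type MEFs and below 0 in Clk/Clk MEFs was the most frequent of the patterns counted, seen in 47 of 81 genes (19.0% of all genes), and in 22 of 81 (17.5% of all genes) under quantile normalization. Another 9 genes were above 0 in all 3 genotypes (21.0% of all genes) and 2 were below 0 in all 3 (12.7% of all genes). No gene of the 81 was at least 2-fold apart in the same direction in all 3 genotypes (0.264% of all genes).

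**Figure D1:**
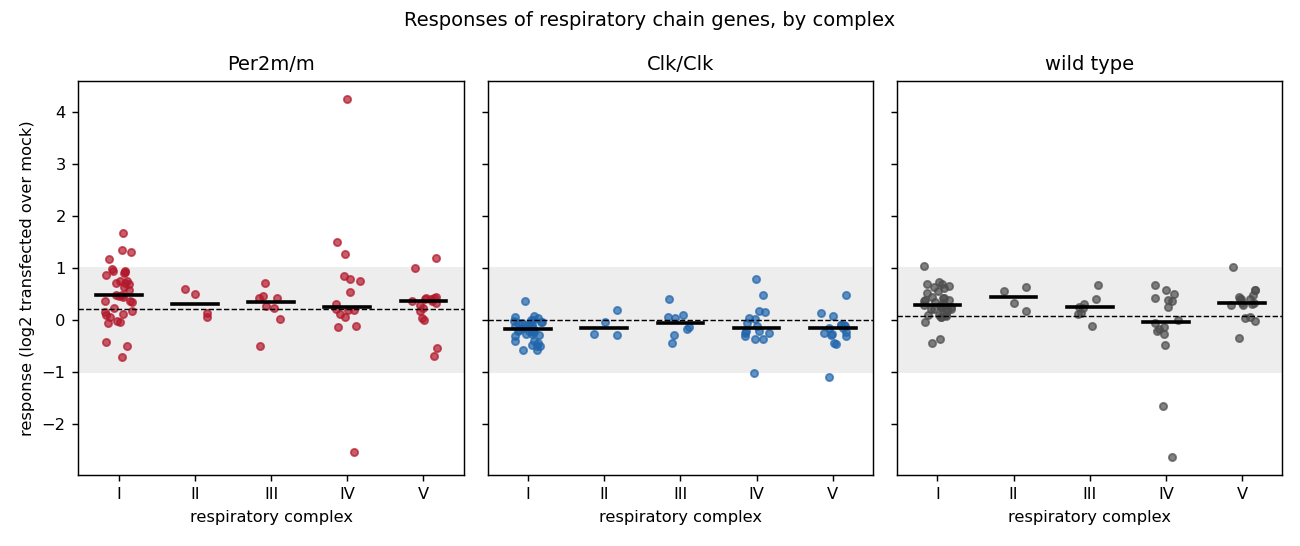
Response of each of the 81 genes (log2 transfected over mock, vertical axis) by complex (horizontal axis) in Per2m/m, Clk/Clk and wild type MEFs, 1 point per gene. Bars are medians of a complex, the dashed line is the median of all 12899 genes and the grey band is 2-fold either way. The complex I bar lies at 0.48, -0.17 and 0.28 in the 3 genotypes, and the widest scatter is in complex IV.

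Complex I, which takes electrons from NADH, had a median response of 0.48 in Per2m/m, -0.17 in Clk/Clk and 0.28 in wild type MEFs. Of its 36 genes 30 were above 0 in Per2m/m (59.5% of all genes), 4 in Clk/Clk (50.5%) and 33 in wild type MEFs (55.3%). Relative to all genes this complex kept its direction under every scaling, at 0.09 to 0.26 in Per2m/m, -0.16 to -0.20 in Clk/Clk and 0.04 to 0.24 in wild type MEFs.

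The largest complex I response in Per2m/m MEFs was that of Ndufb9, an accessory subunit of the membrane arm, read at chromosome 15, 58770972 to 58771031 (mm9, as all probe positions here). Its level was 7.5 in transfected and 5.83 in mock Per2m/m MEFs, 5.83 and 5.84 in transfected and mock Clk/Clk MEFs, and 6.53 and 5.83 in transfected and mock wild type MEFs. The 3 mock arrays thus differed by 0.01, and the transfected arrays separated the genotypes. In Per2m/m MEFs 8 of the 81 genes were at least 2-fold higher (19.0% of all genes) and 4 of these belonged to complex I. They were Ndufb9 (1.66), Ndufa1 (1.34), Ndufa6 (1.30) and Ndufs8 (1.17), of which the last 3 are named because they passed 2-fold. Ndufa1, a small membrane subunit encoded on the X chromosome, had a level of 6.70 in transfected and 5.36 in mock Per2m/m MEFs, against a range of 5.19 to 5.87 on the other 4 arrays. Ndufs8, an iron-sulfur subunit of the arm that passes electrons to quinone, had 4.42 in transfected and 3.25 in mock Per2m/m MEFs, 2.69 and 2.90 in transfected and mock Clk/Clk MEFs, and 3.44 and 2.92 in transfected and mock wild type MEFs.

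Other subunits of complex I went the other way in Per2m/m MEFs. Ndufa3, a membrane subunit, had the lowest response there (-0.71), with -0.17 in Clk/Clk and -0.36 in wild type MEFs. By its brightest probe it was 1 of the 2 genes below 0 in all 3. Its 3 probes ranged from -0.17 to 0.60 in Clk/Clk MEFs, so their signs differed there. Ndufa13, an accessory subunit also known as GRIM-19, had responses of -0.51 in Per2m/m, -0.59 in Clk/Clk and 0.08 in wild type MEFs. Ndufa10, a subunit related to nucleoside kinases, had a level of 4.61 in transfected and 3.62 in mock Per2m/m MEFs, 2.81 and 2.88 in transfected and mock Clk/Clk MEFs, and 3.64 and 3.42 in transfected and mock wild type MEFs. Both Clk/Clk arrays were the lowest for this gene.

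In wild type MEFs 2 of the 81 genes were at least 2-fold higher in the transfected culture (6.73% of all genes). One was Ndufa12, an accessory subunit of complex I, with a level of 5.99 in transfected and 5.63 in mock Per2m/m MEFs, 5.99 and 5.94 in transfected and mock Clk/Clk MEFs, and 6.26 and 5.23 in transfected and mock wild type MEFs. Its mock wild type array was the lowest of the 6. Ndufv3, an accessory subunit of the NADH-binding module, had responses of 0.22 in Per2m/m, -0.58 in Clk/Clk and -0.44 in wild type MEFs. The last was the lowest of complex I there. Its 3 probes ranged from -0.22 to 0.22 in Per2m/m and from -0.93 to 0.05 in wild type MEFs, so their signs differed in both. Ndufs7, another iron-sulfur subunit, was above 0 in all 3 genotypes, with 0.48 in Per2m/m, 0.36 in Clk/Clk and 0.64 in wild type MEFs, and had the highest complex I response in Clk/Clk MEFs.

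Complex II, succinate dehydrogenase, is the only complex encoded wholly in the nucleus and is also an enzyme of the TCA cycle. All 4 of its genes were above 0 in Per2m/m (59.5% of all genes) and in wild type MEFs (55.3%), and 1 of 4 in Clk/Clk MEFs (50.5%). Under quantile normalization, though, 2 of 4 were above 0 in Per2m/m and 3 of 4 in wild type MEFs, and the Per2m/m median relative to all genes was -0.06. Sdhc, a membrane anchor that binds quinone, had a level of 4.36 in transfected and 3.76 in mock Per2m/m MEFs, 3.00 and 3.27 in transfected and mock Clk/Clk MEFs, and 4.05 and 3.50 in transfected and mock wild type MEFs. Sdhd, the other anchor, had responses of 0.13 in Per2m/m, 0.18 in Clk/Clk and 0.64 in wild type MEFs. Sdha, the flavoprotein that oxidizes succinate, had 0.49, -0.04 and 0.33 in the same order, and Sdhb, the iron-sulfur subunit, had 0.06, -0.30 and 0.17. The catalytic pair and the anchors thus gave no order that was the same in the 3 genotypes.

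Complex III, cytochrome bc1, passes electrons from quinol to cytochrome c. Its 8 genes had median responses of 0.34 in Per2m/m, -0.06 in Clk/Clk and 0.24 in wild type MEFs, and under quantile normalization -0.05, -0.03 and 0.03, so its direction in Per2m/m MEFs depended on the scaling. Uqcrc1, a core subunit, had the only response of the complex below 0 in Per2m/m MEFs. Its level was 3.99 in transfected and 4.49 in mock Per2m/m MEFs, 3.86 and 3.46 in transfected and mock Clk/Clk MEFs, and 4.63 and 4.38 in transfected and mock wild type MEFs. It was lower in transfected than in mock Per2m/m MEFs and higher in transfected than in mock Clk/Clk MEFs. Its partner Uqcrc2 had responses of 0.23, 0.09 and -0.11 in Per2m/m, Clk/Clk and wild type MEFs. Uqcr10, a small subunit, had the highest response of the complex in Per2m/m MEFs (0.70). Uqcrb, which lies near the quinone site, had 0.01 in Per2m/m MEFs and 0.68, the highest, in wild type MEFs, and Uqcrh, the hinge protein, had the lowest in Clk/Clk MEFs (-0.44).

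Complex V, the ATP synthase, had median responses of 0.36 in Per2m/m, -0.16 in Clk/Clk and 0.32 in wild type MEFs, and the Per2m/m median was -0.01 under quantile normalization. The 3 genes of the c subunit, whose ring turns in the membrane, encode the same mature protein and were compared as isoforms. Atp5g2 had a level of 8.20 in transfected and 7.20 in mock Per2m/m MEFs, 6.90 and 7.15 in transfected and mock Clk/Clk MEFs, and 8.02 and 7.0 in transfected and mock wild type MEFs. Its wild type response of 1.03 was the other one past 2-fold, and its Per2m/m response of 1.00 lay just under 2-fold. Atp5g1 and Atp5g3 had smaller responses, 0.37 and 0.42 in Per2m/m, -0.10 and -0.15 in Clk/Clk, and 0.40 and 0.30 in wild type MEFs. Atp5b, the catalytic beta subunit, had responses of 0.00 in Per2m/m, 0.07 in Clk/Clk and 0.32 in wild type MEFs.

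Atp5j and Atp5o encode the F6 and OSCP proteins of the stalk that holds the catalytic head still. They had the lowest complex V responses in Per2m/m MEFs, -0.69 and -0.54, with -0.11 and -0.23 in Clk/Clk MEFs, and 0.48 and 0.57 in wild type MEFs. Atp5o is named with Atp5j because both were read on chromosome 16. Atp5sl had the highest responses of the group in Per2m/m (1.20) and Clk/Clk MEFs (0.49). Atp5s had the lowest in Clk/Clk (-1.1) and in wild type MEFs (-0.35). Neither is a subunit of the enzyme, and Atp5s was the dimmest gene that passed the brightness rule, with levels of -2.97 to -1.57. The response of Atp5s in Clk/Clk MEFs was -0.51 when the background was corrected with normexp.

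Complex IV, cytochrome c oxidase, hands the electrons to oxygen. Its 16 genes had median responses of 0.25 in Per2m/m, -0.16 in Clk/Clk and -0.04 in wild type MEFs, with 13, 6 and 7 above 0 (59.5%, 50.5% and 55.3% of all genes). Its Per2m/m median was -0.03 under quantile normalization. The wild type median of the complex lay below that of all genes under every scaling, by a log2 difference of -0.15 to -0.05. It includes the dim second forms Cox4i2 (-0.18), Cox6a2 (-0.48), Cox6b2 (-2.64) and Cox7a1 (-1.65), all below 0 there. With them 9 of the 16 genes were below 0, so this median does not describe the common forms alone. The largest response of this complex in each genotype was that of a tissue form, Cox6a2 in Per2m/m, Cox7a1 in Clk/Clk and Cox6b2 in wild type MEFs. Cox6a1, the common form of subunit VIa, had levels of 8.78 and 8.73 in transfected and mock Per2m/m MEFs, 8.85 and 8.84 in transfected and mock Clk/Clk MEFs, and 8.63 and 8.77 in transfected and mock wild type MEFs. Its 6 values spanned 0.22. Cox6a2, the form known from heart and skeletal muscle, had a level of 2.02 in transfected and -2.23 in mock Per2m/m MEFs, 0.20 and -0.60 in transfected and mock Clk/Clk MEFs, and -1.48 and -1.0 in transfected and mock wild type MEFs. The transfected Per2m/m array was the highest and the mock Per2m/m array the lowest of the 6. The response of 4.25 in Per2m/m MEFs was the largest of the 81 genes in any genotype.

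Cox6b2, the testis form of subunit VIb, had a level of -2.16 in transfected and 0.38 in mock Per2m/m MEFs, 0.23 and -0.24 in transfected and mock Clk/Clk MEFs, and -2.26 and 0.38 in transfected and mock wild type MEFs. Per2m/m and wild type MEFs gave nearly the same pair of values, and Clk/Clk MEFs did not follow them. It was the only gene of the 81 at least 2-fold lower in Per2m/m MEFs (-2.54, 13.7% of all genes). In wild type MEFs it (-2.64) and Cox7a1 (-1.65) were the 2 genes at least 2-fold lower (6.3% of all genes). Cox6b1, the common form, had responses of -0.14 in Per2m/m, -0.06 in Clk/Clk and -0.21 in wild type MEFs and was the other gene below 0 in all 3.

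Cox7a1, the heart and muscle form of subunit VIIa, had a level of 0.54 in transfected and -0.30 in mock Per2m/m MEFs, -1.48 and -0.45 in transfected and mock Clk/Clk MEFs, and -2.13 and -0.47 in transfected and mock wild type MEFs. The mock arrays lay within 0.18 of each other, and the transfected arrays spread over 2.66. In Clk/Clk MEFs it (-1.03) and Atp5s were the 2 genes at least 2-fold lower (2.1% of all genes), and 0 of 81 were at least 2-fold higher (1.75% of all genes). Cox7a2, the common form, had responses of 0.18 in Per2m/m, -0.11 in Clk/Clk and 0.57 in wild type MEFs. Cox7a2l, the supercomplex factor, had a level of 7.58 in transfected and 6.31 in mock Per2m/m MEFs, against a range of 5.86 to 6.27 on the other 4 arrays, and its 3 probes gave responses of 1.11 to 1.28 in Per2m/m MEFs.

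The remaining isoform sets of this complex were those of subunits IV, VIIb and VIII. Cox4i1, the common form of subunit IV, had responses of 0.30, -0.31 and -0.07 in Per2m/m, Clk/Clk and wild type MEFs, and Cox4i2, the form known from lung, had 0.12, 0.03 and -0.18 at levels of -1.93 to -1.35. Cox7b had 0.78, -0.21 and 0.25, and Cox8a had 0.74, -0.24 and -0.01. Cox6c, a small nuclear-encoded subunit with no second form in the rule, had 1.5, -0.20 and 0.67. The tissue forms Cox7b2, Cox8b and Cox8c were not well above background on any array. Of 8 muscle markers examined, Ckm, Myog, Myh3 and Ttn were not well above background on any array. Acta1, which encodes skeletal muscle actin, had levels of -1.57 in transfected and 6.03 in mock Per2m/m MEFs. The summed linear level of the 8 markers was 2.74 in transfected and 67.2 in mock Per2m/m MEFs, 29.9 and 17.6 in transfected and mock Clk/Clk MEFs, and 16.8 and 34.9 in transfected and mock wild type MEFs. Acta1 made up most of that sum except in transfected Per2m/m MEFs. Tnnt2, cardiac troponin T, had levels of 1.20 and 0.48 in transfected and mock Per2m/m MEFs. The part of these genes in the values of Cox6a2 and Cox7a1 was not tested.

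**Figure D2:**
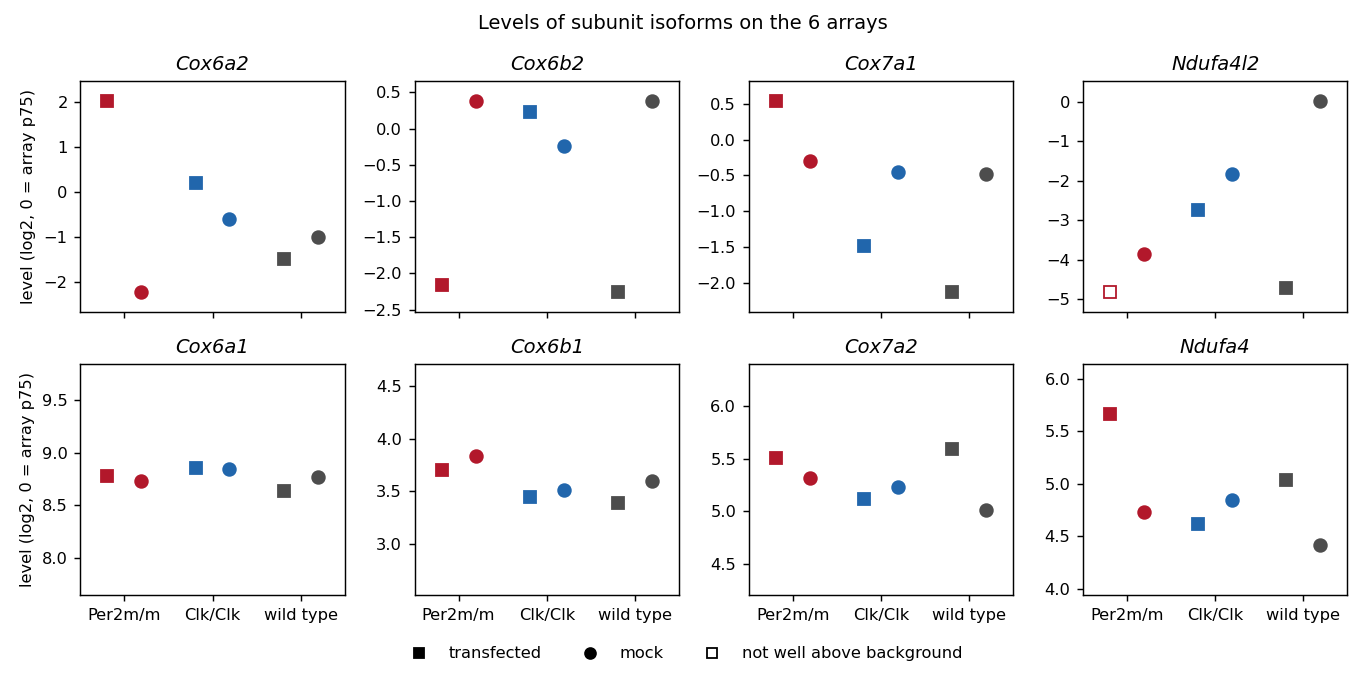
Level (log2, 0 is the array's 75th percentile, own range per panel) of 4 second forms in the upper row and the common form of each in the lower row, on the 6 arrays. Squares are transfected and circles mock cells, and the open square is not well above background. Cox6a1 spans 0.22 over the arrays, while Cox6a2 runs between -2.23 and 2.02.

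Ndufa4l2, a paralogue of Ndufa4 known as a target of hypoxia-inducible factor, just missed the brightness rule, with 5 of 6 arrays well above background. In transfected Per2m/m MEFs it was not well above background, and in mock Per2m/m MEFs it had a level of -3.85, so it was at least 1.67-fold lower. That bound sets the mock level against the lowest level well above background on the transfected array. Its level was -2.74 in transfected and -1.84 in mock Clk/Clk MEFs, and -4.73 in transfected and 0.02 in mock wild type MEFs, which is 26.9-fold lower. Among the 3 mock arrays alone it ranged over 3.87. Ndufa4, the paralogue itself, now assigned to complex IV, had responses of 0.94 in Per2m/m, -0.23 in Clk/Clk and 0.62 in wild type MEFs. Just inside the brightness rule, the dimmest genes that passed were Atp5s, Cox4i2, Cox7a1, Cox6b2 and Cox6a2, with mean levels of -2.01 to -0.51.

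Where a gene was read by several probes, these mostly gave the same direction. Of 28 such genes, 23 had the same sign on all their probes in Per2m/m, 25 in Clk/Clk and 25 in wild type MEFs. The median gap between probes of a gene was 0.12, 0.07 and 0.08, and the widest 0.53, 0.77 and 0.97. The brightest Cox5b probe lies on chromosome 15, away from its other probe on chromosome 1, and gave 0.20 in Per2m/m MEFs where the other gave -0.07. Which of the copies it reads cannot be told apart.

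The subunits encoded by the mitochondrial genome offered a comparison outside the rule. All 13 were measured, and 12 had their probe on the mitochondrial chromosome, the ND3 probe being placed on chromosome 1. Their median response was -0.05 in Per2m/m, 0.10 in Clk/Clk and -0.47 in wild type MEFs, against 0.40, -0.16 and 0.29 in the 81 nuclear genes. In Per2m/m MEFs 5 of 12 were above 0 (59.5% of all genes). In Clk/Clk MEFs all 12 were (50.5% of all genes). In wild type MEFs 0 of 12 were above 0 (55.3% of all genes) and 0 of 12 lay above the median of the nuclear genes.

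Nuclear genes of the chain thus had higher median responses than mitochondrial ones in Per2m/m and wild type MEFs and a lower one in Clk/Clk MEFs. The difference of the medians, mitochondrial minus nuclear, was -0.45, 0.25 and -0.76 in Per2m/m, Clk/Clk and wild type MEFs, and over all scalings it ranged from -0.52 to -0.45, from 0.25 to 0.28 and from -0.80 to -0.76. In wild type MEFs the lowest was ND5, a proton-pumping subunit of complex I, with -1.1, followed by ND4L with -0.86, and the highest was ND6 with -0.07, the one subunit encoded on the other strand. With arrays scaled to their medians, 4 of 12 wild type responses and 7 of 12 Per2m/m responses were above 0. The mock arrays differed too. In mock Per2m/m MEFs the 12 were all lower than in mock wild type MEFs, with a median of -0.38, while the nuclear genes had a median of 0.14. Mitochondrial transcripts come from 1 precursor per strand, so the 12 are not independent readings.

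**Figure D3:**
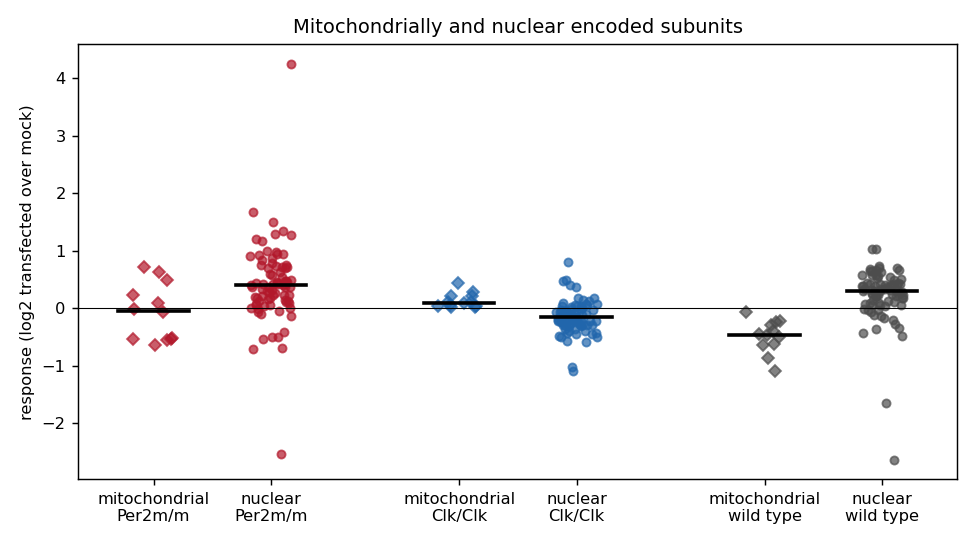
Response (log2 transfected over mock, vertical axis) of the 12 mitochondrially encoded subunits with a probe on the mitochondrial chromosome (diamonds) and of the 81 nuclear genes (circles), in Per2m/m, Clk/Clk and wild type MEFs, with medians as bars. The mitochondrial bar is below the nuclear bar in Per2m/m (-0.05 and 0.40) and wild type MEFs (-0.47 and 0.29) and above it in Clk/Clk MEFs (0.10 and -0.16).

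Responses also differed by chromosome. The other 544 genes read on chromosome 15 had a median response of 0.61 in Per2m/m, 0.05 in Clk/Clk and 0.46 in wild type MEFs. That was above the median of all genes by 0.34 to 0.40 in Per2m/m and by 0.33 to 0.39 in wild type MEFs over the scalings tried. The genes of the chain there, Ndufb9, Cox6c, Ndufa6 and Atp5g2, had responses of 1.66, 1.5, 1.30 and 1.00 in Per2m/m MEFs and 0.70, 0.67, 0.66 and 1.03 in wild type MEFs. These 8 values lay above the chromosome's median. The fifth gene there is Cox5b, whose probe on this chromosome is the ambiguous one described above, and its 0.20 in Per2m/m and 0.42 in wild type MEFs lay below it. On chromosome 17 the median over the other 670 genes was 0.67 in Per2m/m and 0.09 in wild type MEFs. The 6 genes of the chain read there had median responses of 0.60 in Per2m/m and 0.02 in wild type MEFs, both below the chromosome's median. In Per2m/m MEFs they ranged from 0.09 to 1.28, and Cox7a2l was the highest.

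Across the 81 genes, the response correlated with the median of the other genes of the chromosome at r = 0.27 in Per2m/m, 0.425 in Clk/Clk and 0.571 in wild type MEFs. Without Cox6a2, Cox6b2 and Cox7a1 the values were 0.445, 0.478 and 0.539 over 78 genes. Genes of one chromosome share its median, so these are descriptions. Without chromosomes 15, 17 and X, the 67 remaining genes had median responses of 0.36 in Per2m/m and 0.29 in wild type MEFs, against 0.17 and 0.06 over the 11256 genes left, and 3 of the 67 were at least 2-fold higher in Per2m/m MEFs (17.1% of the genes left). The chromosomes left still differed from one another. In Per2m/m MEFs the medians of chromosomes 6 and 1 were 0.44 and 0.43, above the 0.32 of X. In wild type MEFs that of chromosome 10 was 0.27. That of chromosome 7, which holds Cox6a2, Cox6b2 and Cox7a1, was -0.175 there. On chromosome 16 the chromosome median was 0.24 in Per2m/m MEFs while Atp5j, Atp5o and Ndufb4 were below 0, at -0.69, -0.54 and -0.05. Copy number was not measured, and its part in these values was not tested.

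**Figure D4:**
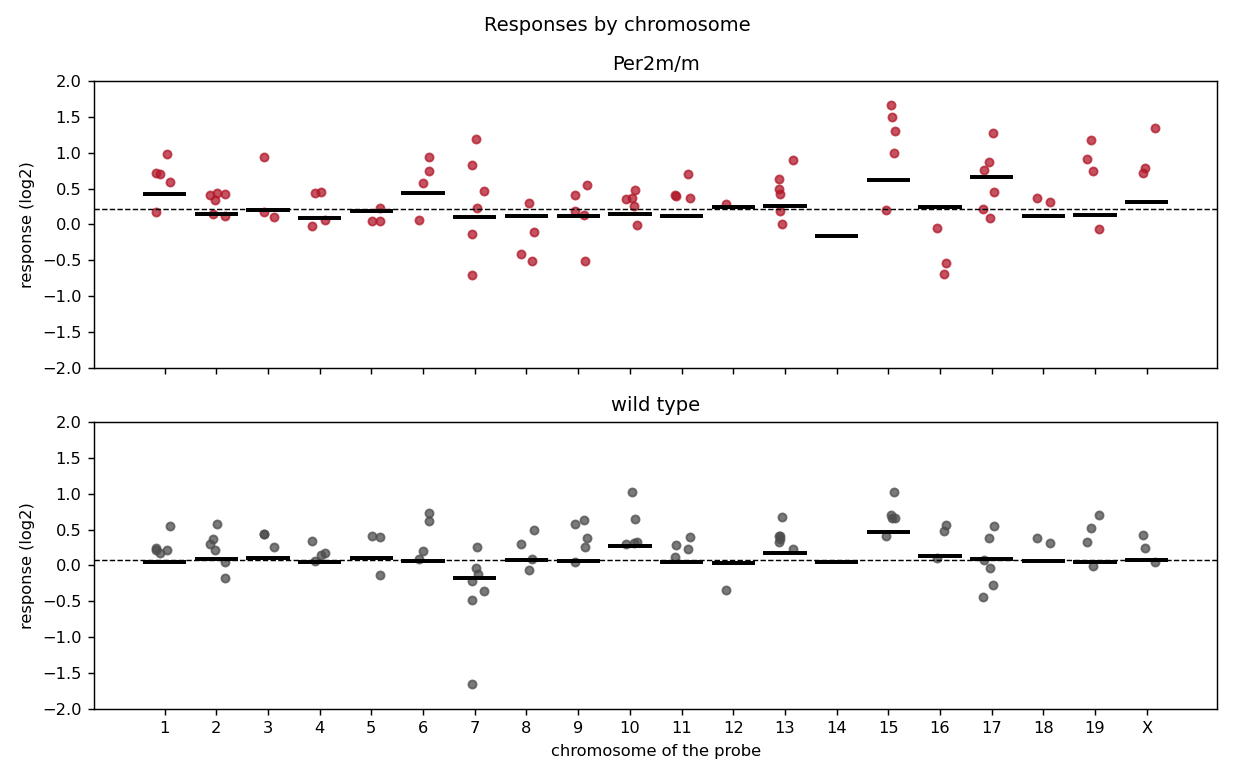
Response (log2 transfected over mock, vertical axis) of the nuclear genes of the chain by the chromosome of their probe (horizontal axis) in Per2m/m (upper panel) and wild type MEFs (lower panel). Thick bars are the median of the other genes of a chromosome and the dashed line that of all genes. Cox6a2 (4.25) and Cox6b2 (-2.54) lie outside the axis in Per2m/m MEFs and Cox6b2 (-2.64) in wild type MEFs. The bar of chromosome 15 is 0.61 for Per2m/m and 0.46 for wild type MEFs.

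The second comparison set the genotypes against each other. Both mutants were set against the same wild type arrays, so the 2 sets of differences are not independent, and each transfected or mock array also enters a response. Across the 81 genes, each difference was also set beside the median difference of the other genes of the same chromosome. For Clk/Clk minus wild type they correlated at r = 0.614 in transfected and 0.554 in mock cells. For Per2m/m minus wild type r was 0.38 and 0.08. The part of chromosomes in these differences was not tested. In mock cells the genes of the chain differed little between genotypes. Per2m/m minus wild type had a median of 0.14 (0.02 over all genes) and 71 of 81 were above 0 (53.1% of all genes), or 52 of 81 under quantile normalization. Only Cox6a2 was at least 2-fold lower (-1.23, 1.96% of all genes) and 0 were at least 2-fold higher (1.42% of all genes). Clk/Clk minus wild type in mock cells had a median of 0.00 (-0.09 over all genes) with 40 of 81 above 0 (44.1% of all genes) and 0 of 81 at least 2-fold apart in either direction (7.29% of all genes each way). The largest mock differences there were those of Uqcrc1 (-0.92) and Atp5j2, a subunit of the membrane part of complex V (0.81), both named for their size.

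Transfected cells were further apart. Per2m/m minus wild type had a median of 0.25 (0.11 over all genes), and 62 of 81 were above 0 (56.1% of all genes), though relative to all genes the median was 0.01 under quantile normalization. At least 2-fold higher were 5 genes (13.4% of all genes), which were Cox6a2 (3.51), Cox7a1 (2.66), Cox7a2l (1.59), Ndufa1 (1.46) and Atp5sl (1.16), and 0 were at least 2-fold lower (11.0% of all genes). The first 3 are tissue forms of complex IV subunits and the supercomplex factor.

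Clk/Clk minus wild type in transfected cells had a median of -0.47 (-0.22 over all genes) with 14 of 81 above 0 (37.7% of all genes), and relative to all genes -0.02 under quantile normalization. By complex the medians were -0.48 in I, -0.74 in II, -0.69 in III, -0.16 in IV and -0.42 in V. In complex IV 7 of 16 genes were above 0. Among them were the dim second forms Cox4i2 (0.58), Cox6a2 (1.68), Cox6b2 (2.49) and Cox7a1 (0.65). Relative to all genes, complex II stayed lower under every scaling (-0.60 to -0.27) and so did complex III (-0.62 to -0.24). At least 2-fold higher were Cox6b2 (2.49) and Cox6a2 (1.68) (9.33% of all genes), and at least 2-fold lower were Atp5f1 (-1.26), Atp5g2 (-1.13) and Sdhc (-1.05) (9.75% of all genes). Atp5f1, listed by RefSeq as Atp5pb, encodes the b subunit of the stator, and had a level of 3.40 and 3.56 in transfected and mock Clk/Clk MEFs, against 4.67 and 4.23 in transfected and mock wild type MEFs.

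**Figure D5:**
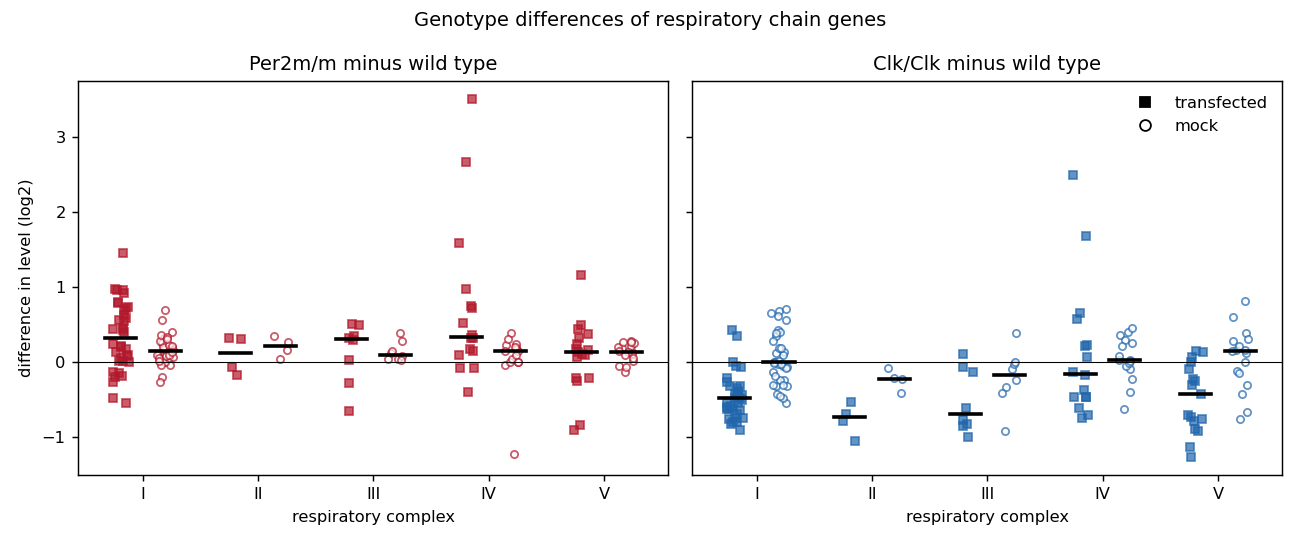
Difference in level (log2, vertical axis) of each gene between Per2m/m (left) or Clk/Clk (right) and wild type MEFs by complex (horizontal axis), in transfected (squares) and mock cells (circles), with medians as bars. The Clk/Clk medians lie lower in transfected than in mock cells in all 5 complexes, for example -0.74 and -0.22 in complex II. The median of all genes is also lower, at -0.22 and -0.09. Under quantile normalization, not drawn, complex IV is the other way round, with 0.155 in transfected and 0.053 in mock cells.

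The additive model of genotype and transfection, fitted with limma over all 12899 genes with 2 residual degrees of freedom, called none of the genes of the chain. For transfected minus mock 0 of 81 passed an adjusted p of 0.05 (0.0% of all genes), and 0 had an unadjusted p under 0.05 (6.74% of all genes). Cox6b2 had the lowest p, with a coefficient of -1.57 ± 0.70 (SE, limma adjusted p = 0.627), and was lower in transfected cells in 2 of 3 genotypes. For Per2m/m minus wild type 0 of 81 passed (0.0% of all genes) and 0 had an unadjusted p under 0.05 (1.79% of all genes). There Ndufs6, a zinc-binding accessory subunit of complex I, had 0.81 ± 0.33 (SE, limma adjusted p = 0.934) and was higher in both transfected (0.92) and mock cells (0.70).

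For Clk/Clk minus wild type 0 of 81 passed as well (0.0% of all genes), and 1 had an unadjusted p under 0.05 (11.1% of all genes). This was Atp5f1, with -0.97 ± 0.31 (SE, limma unadjusted p = 0.028, adjusted p = 0.416), lower in both transfected and mock cells. Without the Per2m/m pair, 362 of 12899 genes were called for this coefficient (2.81%) and 0 of the 81. The test had few degrees of freedom, so a p above the threshold does not show that a gene was alike in 2 groups.

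Other gene groups of mitochondrial function were described beside the chain. Their values are given under the 75th percentile scaling only, where the median response of all genes was 0.21 in Per2m/m, 0.00 in Clk/Clk and 0.07 in wild type MEFs. For 76 genes of the mitochondrial ribosome, which translates the 13 mitochondrially encoded subunits, it was 0.47 in Per2m/m, 0.02 in Clk/Clk and 0.51 in wild type MEFs. In wild type MEFs 74 of these 76 were above 0 (55.3% of all genes). The nuclear regulators of mitochondrial gene expression, of which 12 of 15 were measured, had medians of 0.67, 0.23 and 0.45 in the same order. Among them Tfam, which packages and transcribes mitochondrial DNA, had responses of 1.47 in Per2m/m, 0.24 in Clk/Clk and 1.13 in wild type MEFs. Nrf1, which binds the NRF1 motif, had 0.74, 0.23 and 1.1. Both were above 0 in every genotype, and Tfam was the highest of the 12 in Per2m/m and wild type MEFs. The other regulators did not all share this. Of the 12, 3 were below 0 in Per2m/m (lowest -1.12), 3 in Clk/Clk (lowest -0.33) and 1 in wild type MEFs (-0.075).

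Assembly factors of the complexes, of which 29 of 34 were measured, had median responses of 0.32 in Per2m/m, 0.03 in Clk/Clk and 0.23 in wild type MEFs. The 13 TCA cycle genes had 0.19, 0.03 and 0.25, and the 15 genes of carriers, porins and import had 0.23, 0.08 and 0.39. Cyc1, the cytochrome c1 of complex III that the name rule does not take, had 0.80, 0.22 and 1.02, and Cycs, the mobile cytochrome c, had 0.49, 0.33 and 0.73. None of the lists named so far in this comparison had a median below 0 in Clk/Clk MEFs. The small group of Atpif1, which inhibits the ATP synthase, and of Higd1a and Higd2a had 0 of 3 above 0 there, with -0.37, -0.33 and -0.39, against -0.80, 1.18 and -0.12 in Per2m/m and 0.48, 0.34 and -0.55 in wild type MEFs. At least 2-fold higher in Per2m/m MEFs were 13 of 76 mitochondrial ribosome genes, 4 of 12 regulators, 3 of 29 assembly factors, 3 of 13 TCA cycle genes and 2 of 15 carrier and import genes (19.0% of all genes).

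A list of 10 genes known to be induced by hypoxia, which in many cells restrains respiration, had the widest range of the lists. Its median response was 2.36 in Per2m/m, -0.79 in Clk/Clk and -0.02 in wild type MEFs, and 6 of 10 passed 2-fold upward in Per2m/m MEFs (19.0% of all genes) and 4 of 10 downward in Clk/Clk MEFs (2.1% of all genes). Pdk1, the kinase that keeps pyruvate out of the TCA cycle, had responses of 4.81, -1.65 and 1.44, and Bnip3, a mitochondrial outer membrane protein of mitophagy, had 3.41, -1.37 and 0.19. Ndufa4l2, a gene of the chain that responds to the same factor in other cells, did not share this order and was lower in transfected cells of all 3 genotypes.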

How the data were processed

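Total RNA of 6 cell cultures was labelled with Cy3 and hybridised to 1 single-colour Agilent array each, per the labels' protocols. The deposited scanner output holds a linear, processed intensity for each spot, extracted with Feature Extraction 10.7.1.1 per the file headers, while the submitters' processing notes name version 9.5.1.1. A series-wide table deposited by the authors also holds intensity. Its 6 columns each have a median of 23.8 and follow the log2 processed signal of their array at r of at least 0.998, and was therefore taken for processed signal after quantile normalization. The scale is linear, genes are not centred and no ratio is formed in it, and the sources used here do not name its software.

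Each array had 59305 spots that are not controls, of which 85 to 125 were left out as outliers and 0 were saturated. All arrays were on 1 slide scanned once, with both Per2m/m arrays in row 2 and the other 4 in row 1, so slide row and the Per2m/m genotype cannot be told apart. Log2 processed signals minus the array's 75th percentile were averaged over spots of a probe. A gene was represented by its brightest probe that was well above background on all 6 arrays, under the name in the files. Of 55681 probes 33184 carried a gene name. Probe coordinates are those of the files (mm9). RefSeq (GRCm38.p6) gave the promoter windows and current symbols.

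Genotype and transfection were fitted as additive terms with limma 3.58.1 (lmFit, eBayes, R 4.3.3). Two-sided p-values were adjusted over all genes fitted by Benjamini-Hochberg, with a threshold of 0.05, and the fit was tested on simulated data. It treats the 3 genotypes as repeats of the transfection, and its p-values measure only the spread between these 6 samples. Counts of genes at 2-fold within a pair of arrays have no test. The number of arrays limits the precision. The rest used Python 3.11.15, pandas 2.3.3, numpy 2.4.6 and, for drawing, matplotlib 3.10.9.

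The members, the gene lists and the settings were chosen with earlier results of these data known. Genes were named when they had the highest or lowest response of a complex in a genotype, the lowest p of a coefficient, 1 of the 5 largest SDs over arrays, or belonged to an isoform set or to complex II. Those of the 8 genes past 2-fold in the Per2m/m pair, Atp5o, Ndufb4 and Atp5j2 outside that rule were named after their values were seen. Atp5b and Cox5b also lie outside it, and no rule picked single genes of the other lists, such as Tfam, Nrf1, Pdk1 and Bnip3. Alternatives were array median scaling, quantile normalization, normexp with an offset of 50, the authors' table, detection on at least 1 array, the mean over probes, and leaving out each genotype's pair.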

Additional observations from a re-analysis of the deposited data

Results flagged for a closer look

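Differences between genotypes in the same contrast are listed here where the responses of 2 genotypes had opposite signs. Each genotype is 1 pair of arrays, so none of these differences was tested. Of the 81 genes, 22 had opposite signs in Per2m/m and wild type, 60 in Clk/Clk and wild type, and 58 in Per2m/m and Clk/Clk MEFs. The same counts were not made over all genes, so they do not set the chain apart. Signs also depended on the scaling, since 68 of 81 Per2m/m responses were above 0 here and 45 under quantile normalization. Single genes are given only where the responses were also at least 4-fold apart, a size chosen with the data in view. The 12 mitochondrially encoded subunits, of which all were above 0 in Clk/Clk and 0 in wild type MEFs, had a median response of 0.10 in Clk/Clk and -0.47 in wild type MEFs, a difference of 0.57. Cox6a2, the muscle form of a complex IV subunit, had responses of 4.25 in Per2m/m and -0.48 in wild type MEFs, a difference of 4.74. Cox7a1, the muscle form of another, had 0.83 in Per2m/m and -1.65 in wild type MEFs, a difference of 2.49. Cox6b2, a testis form, had 0.48 in Clk/Clk and -2.64 in wild type MEFs, a difference of 3.12. The same gene had -2.54 in Per2m/m and 0.48 in Clk/Clk MEFs, a difference of -3.01.

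These 3 tissue forms are among the 5 dimmest genes that passed the brightness rule, and the Per2m/m values above rest on the transfected Per2m/m array, which stands apart from the others. The 7 responses in these comparisons of single genes kept their sign in 42 of 42 values recomputed with other scalings, detection or probe rules. The detection and probe rules returned the same values for these genes, and the authors' table repeats quantile normalization. The 42 values are therefore not independent checks.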

How the results depend on the processing

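Medians below are those of the genes of the chain minus the median of all genes. Under quantile normalization the Per2m/m response turned from 0.185 to -0.042, the coefficient of transfected minus mock turned from 0.084 to -0.039 and that of Clk/Clk minus wild type turned from -0.079 to 0.09, and with the authors' table the same 3 were -0.042, -0.039 and 0.087. The wild type response was 0.036 and 0.039 under these, against 0.22, and the coefficient of Per2m/m minus wild type was 0.025 and 0.024, against 0.123. With genes well above background on at least 1 array the wild type response was 0.306, the Per2m/m response 0.267 and the coefficient of Clk/Clk minus wild type -0.156. Beside bright genes only, a comparison added after seeing the data, the wild type response was 0.102. With normexp the Clk/Clk difference from wild type in mock cells was 0.014, against 0.09. Without the Clk/Clk pair the transfection coefficient was 0.194, against 0.084. Genes at least 2-fold higher in Per2m/m MEFs numbered 20 with array medians and 5 under quantile normalization and in the authors' table, against 8. In wild type MEFs they numbered 5 with array medians and 0 under the other 2, against 2. Shares over all genes were not counted under these settings. With array medians the median response of all genes rose too, to 0.494 in Per2m/m and 0.39 in wild type MEFs. The medians of the chain relative to it stayed at 0.185 and 0.22. Genes at least 2-fold lower in Clk/Clk MEFs numbered 0 with normexp, against 2. The cause of these shifts was not tested. The 15 responses past 2-fold were recomputed as well. The detection rule left all 15 unchanged, and the authors' table repeats quantile normalization, so the recomputed values are not independent checks. The 15 responses kept their sign in 90 of 90 recomputed values and stayed past 2-fold in 78. Those that did not were Atp5g2 and Ndufa12 in wild type and Cox7a2l, Ndufa1 and Ndufs8 in Per2m/m MEFs under quantile normalization and in the authors' table (0.79 to 0.98), and Atp5s (-0.52) and Cox7a1 (-0.73) in Clk/Clk MEFs with normexp. The limma fit called 0 genes of the chain in every setting run. The transfection coefficient is already paired by genotype.

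One array per group, 2 residual degrees of freedom and the low signals of Atp5s, Cox4i2, Cox6a2, Cox6b2 and Cox7a1 limit what can be read. Leaving out a pair leaves 1 residual degree of freedom.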
